A study of Homo sapiens with 4 samples.

Results

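The miR-210 hairpin gives rise to a pair of mature microRNAs (miRNAs), miR-210-3p and miR-210-5p, and both were followed in H661, a human lung cancer cell line derived from a large cell carcinoma. Members were the rows of the small RNA count table whose name, without species prefix and arm, is miR-210, which gave 2 of 826 rows (hsa-miR-210-3p and hsa-miR-210-5p). The treated cells had received 2.5 µM entinostat, a drug that blocks class I histone deacetylases, and the control cells the solvent dimethyl sulfoxide (DMSO), each for 8 h, with 2 libraries per treatment. All cultures were of this 1 line in medium with serum, and the labels give no oxygen level or hypoxia treatment. The question asked here was how the abundance of miR-210 differed between entinostat and DMSO.

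Hypoxia-inducible factors (HIF) switch on genes when oxygen is scarce, and miR-210 is the miRNA most widely raised by them across human cell types. In lung and other cancers its level is often used as a readout of hypoxia. Among its described targets are the iron-sulfur cluster scaffold ISCU, a mitochondrial protein, and EFNA3, an ephrin ligand linked to blood vessel formation. Target transcripts were not measured here.

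The sequences show why the counts of miR-210 can be assigned to 1 locus. Capitals mark the seed, bases 2 to 8 from the 5′ end, which carries most of the target recognition of a miRNA.
miR-210-3p: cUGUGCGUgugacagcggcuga
miR-210-5p: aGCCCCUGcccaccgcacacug
In the hairpin the capitals mark the mature arms, the 5p arm first.
hairpin MIR210: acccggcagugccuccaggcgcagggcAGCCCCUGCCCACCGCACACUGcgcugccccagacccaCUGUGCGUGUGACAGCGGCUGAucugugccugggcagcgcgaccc
These are the RefSeq sequences for GRCh38.p14, where the hairpin lies on chromosome 11 at 568089 to 568198 on the minus strand. In GENCODE release 29 (GRCh38) the hairpin sits in an intron of all 4 annotated transcripts of the long non-coding RNA gene MIR210HG (565660 to 568457, minus strand) and overlaps an exon in 0 of them. The mature arms lie at 568112 to 568133 (3p) and at 568150 to 568171 (5p). Each arm is 22 bases long, and G and C make up 63.6% of the 3p arm and 72.7% of the 5p arm. Of 1562 RefSeq hairpins, 1 contains the 3p sequence and 1 contains the 5p sequence. A predicted fold of the hairpin (RNAfold, minimum free energy -59.5 kcal/mol) pairs 16 of the 22 bases of miR-210-3p with the 5p arm. No other mature miRNA name of the 2370 in the RefSeq table has the seed of either arm, and 0 of the 729 listed rows that matched that table share bases 2 to 7 with either. Among the matched rows, miR-210 thus had no seed family with which its counts could be pooled.

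Total miRNA counts were 547875 and 753104 in the entinostat libraries and 938559 and 561485 in the DMSO libraries. Levels are given in CPM, counts per 1e+06 miRNA counts of a library, after TMM scaling (a trimmed mean of log ratios between libraries) unless unscaled is stated. Because 1 read counts as 1 miRNA whatever its length, levels are not divided by length, but adapter ligation can recover sequences unequally. The labels do not say whether replicates were separate cultures, and the p-values therefore measure only how far these libraries spread, which may be technical. Of 17 cell type marker miRNAs (epithelium, blood, liver, muscle, neurons, mesenchyme and placenta), 8 had a row. They summed to 0.0365% and 0.0408% of the counts in the entinostat libraries and 0.0348% and 0.0342% in the DMSO libraries. Most of these counts were miR-486-5p, known from red blood cells (102 and 183 counts with entinostat, 216 and 122 with DMSO). The other red blood cell markers, miR-451a and miR-144-3p, had no row. Epithelial miR-200c-3p had 23 and 35 counts with entinostat and 31 and 14 with DMSO. At few counts, epithelial miR-205-5p had 9 and 4 with entinostat and 0 and 2 with DMSO, and miR-141-3p had no row. Mesenchymal miR-145-5p had 9 and 26 counts with entinostat and 11 and 4 with DMSO, a log2 fold change of 1.40 (edgeR adjusted p = 0.595), in the direction of miR-210-3p. The log2 level of miR-145-5p differed by 1.03 between the entinostat libraries and by 0.69 between the DMSO libraries. The other mesenchymal marker, miR-143-3p, had 50 and 54 counts with entinostat and 55 and 47 with DMSO. Its log2 fold change of 0.22 was smaller than its differences between entinostat libraries (0.37) and between DMSO libraries (0.50). Liver miR-122-5p was at 0 counts in both entinostat libraries and at 5 and 0 counts in the DMSO libraries. The summed marker share, miR-145-5p and miR-205-5p were higher with entinostat, as was miR-210-3p below, and their part in that difference was not tested.

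The major arm, miR-210-3p, was somewhat more abundant in the entinostat libraries than in the DMSO libraries, but the difference did not pass the test. It had 162 and 231 counts in the entinostat libraries and 229 and 143 counts in the DMSO libraries. After scaling this was 298 and 304 CPM with entinostat, against 245 and 254 CPM with DMSO. Both entinostat libraries lay above both DMSO libraries. In such bulk RNA, a larger share of cells with the miRNA and more of it per cell cannot be told apart, and no added standard shows the size of the whole miRNA pool. Mean levels were 301 ± 4.47 CPM with entinostat and 250 ± 6.80 CPM with DMSO (SD, n = 2 each). The fold of entinostat over DMSO was 1.21 with a 95% interval of 0.987 to 1.48, a log2 fold change of 0.27 with a standard error of 0.13. The adjusted p was 0.595 in edgeR's quasi-likelihood test with Benjamini-Hochberg adjustment over the 401 miRNAs that passed the low-count filter, set at a minimum count of 10 and a minimum total of 15. The interval held no change and ended just short of a 1.5-fold rise. A two-sided exact permutation test of the 4 scaled levels gave p = 0.333, the smallest that 2 libraries against 2 allow.

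The background of the whole table sets how such a value reads. At an adjusted p under 0.05, 0 of 401 tested miRNAs (0%) were called by edgeR's quasi-likelihood test. At an unadjusted p under 0.05 it gave 12 higher (2.99%) and 15 lower (3.74%), while DESeq2 gave 3 and 8 among all listed miRNAs and limma-voom 12 and 19, each with 0 called. The edgeR likelihood ratio test called 4 miRNAs, and the quasi-likelihood test called 6 without the first entinostat library, a fit in which the lone entinostat library is assumed to vary like the DMSO pair. By neither was miR-210-3p called. Both entinostat libraries lay above both DMSO libraries in 83 of 401 tested miRNAs (20.7%), so the separation seen for miR-210-3p was a frequent one. The unadjusted edgeR p of miR-210-3p was 0.0628, and a lower one was found for 36 tested miRNAs, of which 15 lay above 0 in log2 fold change. A higher log2 fold change was found for 52 of the other 400.

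The counting intervals of single libraries overlapped between the 2 treatments, while the counting interval of the ratio of summed counts lay above 1. With exact Clopper-Pearson 95% intervals, which cover counting error only, the unscaled level of miR-210-3p was 296 CPM (252 to 345) and 307 CPM (268 to 349) in the entinostat libraries. In the DMSO libraries it was 244 CPM (213 to 278) and 255 CPM (215 to 300.0). Every entinostat interval overlapped every DMSO interval, which is not a test of the difference. With the counts of each treatment summed, 393 of 1300979 with entinostat and 372 of 1500044 with DMSO, the ratio of shares was 1.22 with an exact counting interval of 1.05 to 1.41. That interval compares the reads of these libraries and leaves out the spread between libraries, which the edgeR interval includes. As share of all miRNA counts, miR-210-3p made up 0.0296% and 0.0307% with entinostat and 0.0244% and 0.0255% with DMSO.

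**Figure D1:**
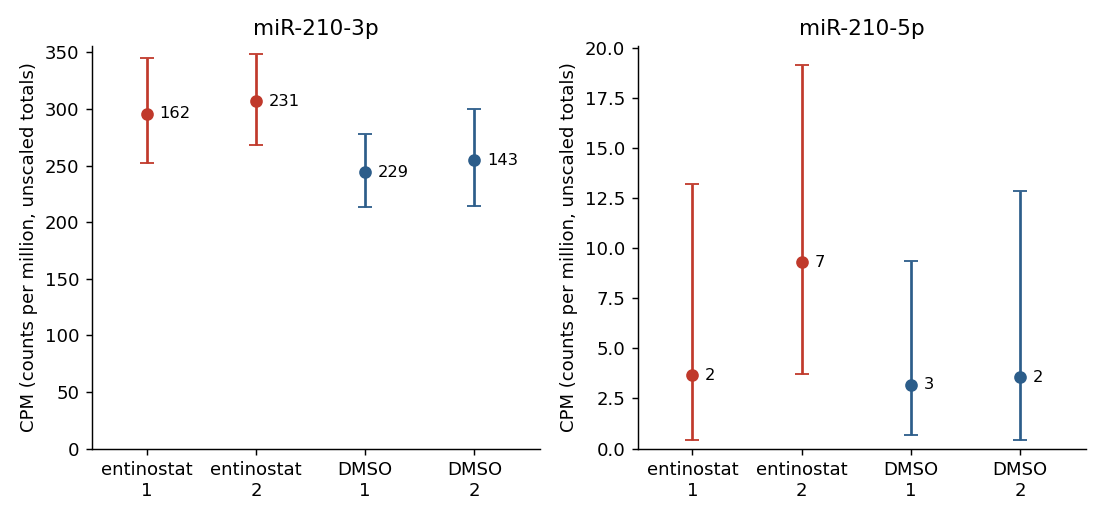
Unscaled level of miR-210-3p (left) and miR-210-5p (right) in each library, in CPM, with exact Clopper-Pearson 95% intervals as bars and the count printed beside each point. The entinostat libraries of miR-210-3p sit at 296 and 307 CPM and the DMSO libraries at 244 and 255 CPM with overlapping intervals, and miR-210-5p rests on 2 to 7 counts a library.

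The minor arm, miR-210-5p, was near the limit of detection in all 4 libraries. It had 2 and 7 counts in the entinostat libraries and 3 and 2 counts in the DMSO libraries, or 3.68 and 9.21 CPM against 3.21 and 3.56 CPM. Unscaled, the limit that a count of 0 allows was 5.48 and 3.98 CPM in the entinostat libraries and 3.20 and 5.34 CPM in the DMSO libraries. The row did not pass the low-count filter and was not tested in the edgeR fit. With summed counts of 9 and 5, the ratio of entinostat to DMSO shares was 2.08, with an exact counting interval of 0.625 to 7.88. The higher value rests on the second entinostat library, and a difference was not detectable at this depth.

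The 3p arm dominated the hairpin under both treatments. The 5p arm made up 1.22% (exact 95% interval 0.148 to 4.34%) and 2.94% (1.19 to 5.97%) of the miR-210 counts in the entinostat libraries. In the DMSO libraries its share was 1.29% (0.267 to 3.73%) and 1.38% (0.167 to 4.89%). The treatments overlapped, and a two-sided exact permutation test of the 4 shares gave p = 1. Over all 4 libraries the table held 765 counts of the 3p arm and 14 of the 5p arm, a minor-arm share of 1.80% (0.986 to 2.997%). Among 145 hairpins with both arms listed and 100 or more counts, the median minor-arm share was 4.51%, the quartiles were 1.05% and 14.1%, and 51 hairpins had a lower share than miR-210. In 75 of the 145 the 3p arm was the more abundant one. The minor-arm share of miR-210 thus lay between the lower quartile and the median of these hairpins.

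By level, miR-210-3p was a miRNA of moderate abundance. It ranked 164 and 160 from the top in the entinostat libraries, where 589 and 682 miRNAs had a count, and 178 and 172 in the DMSO libraries, where 687 and 596 did. The miRNAs next above it by mean DMSO level were miR-362-5p (252 ± 22.9 CPM), miR-7151-3p (252 ± 26.4 CPM) and miR-1260a (249.9 ± 6.29 CPM; SD, n = 2 each). Next below it were miR-382-5p (246 ± 12.1 CPM), miR-629-5p (245 ± 32.5 CPM) and miR-431-5p (243 ± 63.2 CPM; SD, n = 2 each). The ranges of all 6 overlapped that of miR-210-3p in the DMSO libraries, so their order is not resolved. Beside the log2 fold change of 0.27 for miR-210-3p, that of these neighbours was 0.15 for miR-362-5p, 0.16 for miR-7151-3p, -0.27 for miR-1260a, 0.21 for miR-382-5p, -0.0028 for miR-629-5p and 0.04 for miR-431-5p. The values of miR-629-5p and miR-431-5p changed sign under other settings. Those of miR-362-5p, miR-7151-3p and miR-382-5p kept their sign but stood at 0.05 without the first DMSO library, 0.06 without the second DMSO library and 0.10 without the first entinostat library, in that order. None of the 6 was called, and miR-1260a lay as far below 0 as miR-210-3p lay above it.

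The libraries of each treatment were closer for miR-210-3p than for most miRNAs of its level. Its log2 level differed by 0.03 between the entinostat libraries and by 0.06 between the DMSO libraries, while the 4 differences of an entinostat from a DMSO library ran from 0.23 to 0.31. Among the 80 other tested miRNAs within 2-fold of its mean level, the median of the larger of both gaps was 0.28, and 2 had a smaller one. Counting error alone gives a gap with an SD of 0.15 log2 units at these counts in either treatment, so the observed gaps lay under what counting gives and the SDs of the means above understate their error. Of the same 80 miRNAs, 15 had a larger log2 fold change in size (6 higher, 9 lower) and 3 had a lower unadjusted p in the edgeR fit. In 16 of the 80 (20%) both entinostat libraries lay above both DMSO libraries, close to the 20.7% of all tested miRNAs.

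**Figure D2:**
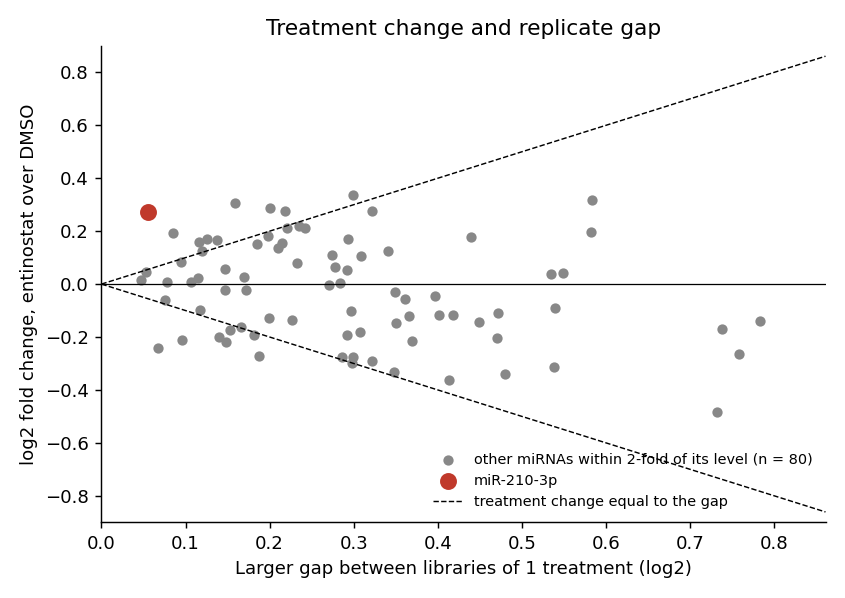
Log2 fold change of entinostat over DMSO (vertical axis) against the larger log2 gap between libraries of 1 treatment (horizontal axis) for miR-210-3p (red) and the 80 other tested miRNAs within 2-fold of its level (grey). The dashed lines mark a fold change equal to the gap. The point of miR-210-3p lies at a gap of 0.06 and a fold change of 0.27, and 15 grey points lie farther from 0.

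A ratio to another miRNA of the same library does not depend on how libraries are scaled. Set against 7 miRNAs often used as references in PCR, miR-210-3p was higher with entinostat in the mean of all 7 ratios, by 0.08 to 0.31 log2 units with a median of 0.17. Relative to miR-191-5p, an abundant miRNA, it stood at 1.14% and 1.14% with entinostat and at 0.863% and 0.974% with DMSO, a log2 difference of 0.31. Relative to let-7a-5p it stood at 5.48% and 6.48% with entinostat and at 5.09% and 4.86% with DMSO, a difference of 0.26. Both entinostat libraries lay above both DMSO libraries for these references and also for miR-16-5p (0.17) and miR-103a-3p (0.11). For miR-93-5p (0.08), miR-25-3p (0.14) and miR-423-5p (0.17) the treatments overlapped. The 7 ratios share the counts of miR-210-3p and are not independent. Each ratio also carries the change of its reference. The log2 fold changes of the references were -0.04 for miR-191-5p, 0.01 for let-7a-5p, 0.10 for miR-423-5p and 0.11 for miR-16-5p. They were 0.13 for miR-25-3p, 0.16 for miR-103a-3p and 0.19 for miR-93-5p, so the spread of the ratios follows the references. The list of hypoxia-raised names below also holds miR-103a-3p. In two-sided exact permutation tests over the 4 libraries the p was 0.333 for the 4 ratios without overlap, the smallest possible, and 0.667 for the others, or 0.583 and 0.667 after Benjamini-Hochberg adjustment over the 7.

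**Figure D3:**
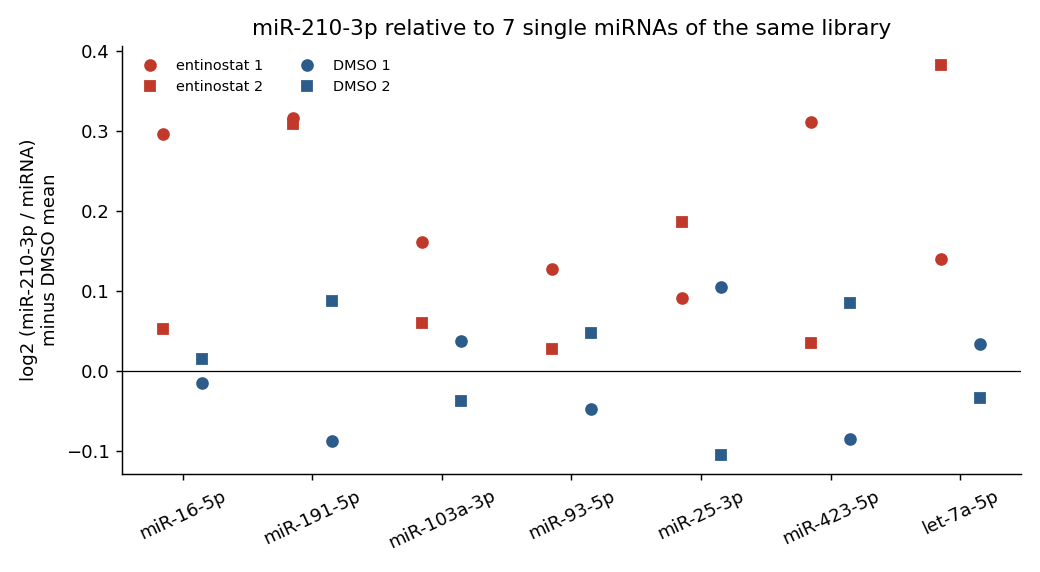
Log2 ratio of the counts of miR-210-3p to those of each of 7 miRNAs in the same library, minus the mean of the DMSO libraries, with entinostat libraries in red and DMSO libraries in blue. The entinostat points lie above both DMSO points for miR-16-5p, miR-191-5p, miR-103a-3p and let-7a-5p and overlap them for the other 3.

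The pattern of miR-210-3p over the 4 libraries was closest to that of 5 other miRNAs, none of which was called. Likeness was the root mean square distance between log2 levels centred on the mean of each miRNA over 4 libraries, and its median over the 400 other tested miRNAs was 0.214. The nearest, at 0.021, was miR-758-3p, from the imprinted cluster on 14q32, with 742 ± 27.2 CPM with entinostat and 610 ± 27.3 CPM with DMSO (SD, n = 2 each). Next were miR-4521 at a distance of 0.0383, miR-146b-5p, linked to inflammatory signalling, at 0.0399, miR-29a-3p, known to act on collagen transcripts, at 0.0427, and miR-4661-5p at 0.0499. Their log2 fold changes were 0.29 for miR-758-3p, 0.27 for miR-4521, 0.31 for miR-146b-5p, 0.20 for miR-29a-3p and 0.24 for miR-4661-5p. With 4 libraries, the distance mostly reflects a like difference between treatments with small gaps within them.

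Other miRNAs that earlier work found raised in hypoxic cancer cells showed small differences, mostly above 0, with none called. The list of 23 names was recalled without a database and with earlier results of these data known. Names were matched without the arm, so both arms of a hairpin could enter. Its shares are therefore set beside those of all tested miRNAs as description only, and no set test was run. The list had 32 rows, of which 25 were tested and 7 were not, 2 of those with under 10 counts in all. Of the 25 tested, 0 passed an adjusted p of 0.05, against 0% of all tested miRNAs, and 1, miR-23a-3p, had an unadjusted p under 0.05. Without miR-210-3p, 20 of 24 lay above 0 and 4 below, where 51.9% of all tested miRNAs lay above 0, with a median log2 fold change of 0.13 against 0.00466 over all tested miRNAs. In 10 of the 24 both entinostat libraries lay above both DMSO libraries, and in 2 both lay below, where 20.7% and 20% of all tested miRNAs did. The members are not independent, since near-identical paralogs such as miR-27a and miR-27b can share reads, clustered hairpins share a transcript, and the counts of miR-365b-3p were identical to those of miR-365a-3p.

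Of these, miR-23a-3p was the member of lowest p. It had 4222 and 7295 counts with entinostat and 6221 and 4263 with DMSO, or 8681 ± 1303 CPM against 7116 ± 660 CPM (SD, n = 2 each), a log2 fold change of 0.29 (edgeR adjusted p = 0.595). With 1 library left out it ran from 0.13, without the second entinostat library, to 0.43, without the first, where miR-210-3p stood at 0.26 and 0.29. From the same cluster, miR-27a-5p was at 805 ± 104 CPM with entinostat and 671 ± 5.12 CPM with DMSO, a log2 fold change of 0.26, which was 0.13 without the first entinostat library and 0.39 without the second. The ubiquitous miR-103a-3p was at 10139.9 ± 655 CPM with entinostat and 9076 ± 579 CPM with DMSO, a log2 fold change of 0.16 (0.09 to 0.23 with 1 library left out). For miR-193b-3p the levels were 546 ± 154 CPM with entinostat and 442 ± 23.6 CPM with DMSO, and its log2 fold change of 0.32 depended on 1 library, at 0.56 without the first entinostat library and -0.02 without the second. Among the other 24 tested members, 4 had a higher log2 fold change than miR-210-3p.

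A shorter list held miRNA names reported to act on HIF1A, the oxygen-regulated subunit, or on its stability, and was split in direction. It too was recalled without a database and with earlier results of these data known. Names were again matched without the arm, so a row need not be the arm that earlier work reported. Of its 11 names, 14 rows were listed, 9 were tested and 5 were not, 3 with under 10 counts in all. The 4 tested rows below 0 were miR-433-3p, miR-424-3p, miR-18a-3p (-0.18) and miR-338-5p (-0.08). None of the 9 was called, where 0% of all tested miRNAs were. Of the 9, 5 lay above 0 and 4 below, where 51.9% of all tested miRNAs lay above 0. The median log2 fold change was 0.08, against 0.00466 over all tested miRNAs. The lowest p was that of miR-433-3p, an imprinted miRNA of 14q32, with 788 ± 11.7 CPM with entinostat and 957 ± 78.0 CPM with DMSO (SD, n = 2 each), a log2 fold change of -0.29 (edgeR adjusted p = 0.595). The inflammation-linked miR-155-5p was at 67.4 ± 6.01 CPM with entinostat and 47.0 ± 9.02 CPM with DMSO, a log2 fold change of 0.54 (95% interval -0.04 to 1.13). Leaving out 1 library gave it values from 0.33 to 0.71. For miR-424 only the 3p arm was tested. Its level was 193 ± 67.9 CPM with entinostat and 261 ± 35.3 CPM with DMSO, a log2 fold change of -0.48. That of miR-424-3p was -0.87 without the first entinostat library and -0.13 without the second. Of the miR-17 seed family, whose members share near-identical sequences, miR-20b-5p was at 0.17 (0.10 without the first DMSO library) and miR-17-5p at 0.14 (0.09 without it).

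**Figure D4:**
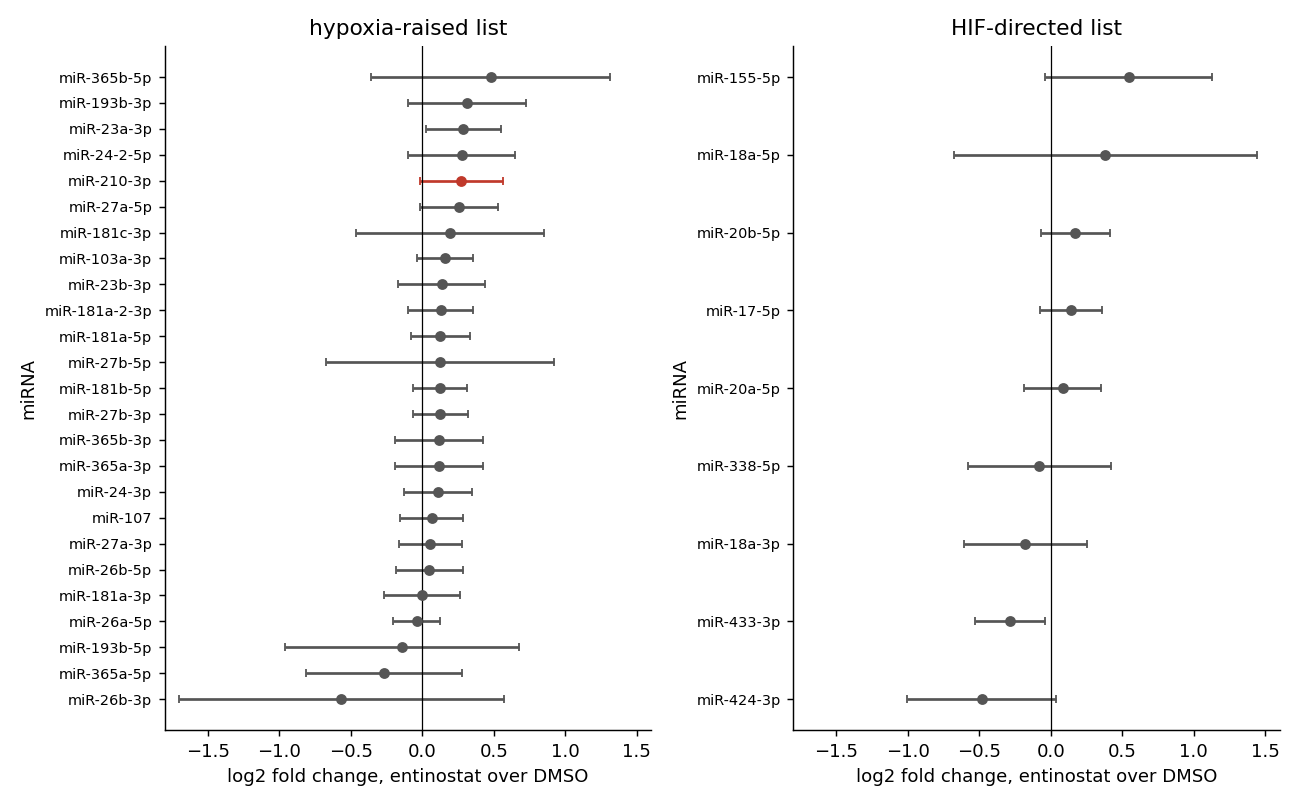
Log2 fold change of entinostat over DMSO with 95% intervals from the edgeR fit, with miR-210-3p in red. Shown are the 25 tested rows of the hypoxia-raised list (left) and the 9 of the HIF-directed list (right). Both lists were matched by name without the arm. The interval lies wholly above 0 for miR-23a-3p and wholly below 0 for miR-433-3p, and holds 0 for the others, miR-210-3p included.

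The neighbourhood of the locus on chromosome 11 gave little signal. Within 2 Mb of the miR-210 hairpin RefSeq places 6 other hairpins, and 1 of them, MIR675 inside the imprinted H19 transcript, had listed rows. The counts of miR-675-3p were 3 and 2 with entinostat and 4 and 0 with DMSO, and those of miR-675-5p were 3 and 2 with entinostat and 3 and 0 with DMSO. Neither row was tested. In these libraries miR-210-3p was thus the 1 miRNA of that window with more than a few counts.

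The miR-210-3p difference kept its direction in every setting that was tried, and its size moved most with upper quartile scaling. Since each entinostat library lay above each DMSO library, leaving out 1 library is a weak check of the direction. Size factors of the DESeq2 kind gave 0.27 and library size alone 0.28. In 17 other fits the log2 fold change ran from 0.24 to 0.39, and the adjusted p from 0.395 to 0.999. Upper quartile scaling gave 0.39 (95% interval 0.04 to 0.74), the 1 fit whose interval left out 0, but it moved the median of all tested miRNAs to 0.12. Relative to that median miR-210-3p stood at 0.27, the same as in the reported fit. Leaving out each library in turn gave 0.24 to 0.29.

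**Figure D5:**
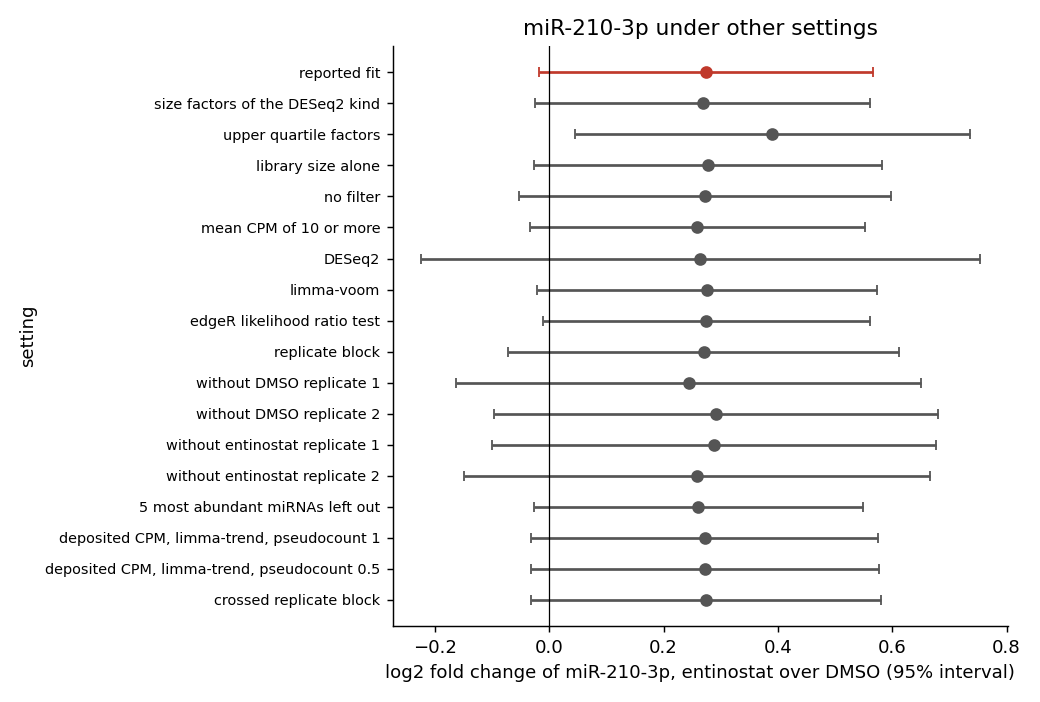
Log2 fold change of miR-210-3p, entinostat over DMSO, with 95% intervals, in the reported edgeR fit (red) and 17 other settings (grey). All values lie above 0, between 0.24 and 0.39, and 16 of the 17 grey intervals reach below 0.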

How the data were processed

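Small RNA was sequenced from 4 H661 libraries. Per the labels' protocols, TRIzol was used for RNA extraction and NEB small RNA reagents for the libraries. The submitters' processing notes name bcl2fastq 2.18. Which aligner, counting tool, build and miRNA annotation were used is not given in the sources used here. The count table deposited by the authors holds 1 row of whole numbers per mature miRNA. The deposited CPM values equal the count over the column total times 1e+06, within 0.0001 CPM in 100% of rows. No molecular identifiers are named, so intervals and limits of a count of 0 (3 counts) cover counting error only.

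Counts were scaled by TMM, filtered by filterByExpr (minimum count 10, minimum total 15) and tested by quasi-likelihood (edgeR 4.0.16, R 4.3.3) in a model of treatment alone. Calls needed an adjusted p under 0.05 (Benjamini-Hochberg). Of 826 rows, 401 were tested. Alternatives used DESeq2 1.42.0, limma 3.58.1, other scalings, filters and a replicate block, and each replicate left out. Python 3.11.15, SciPy 1.17.1 and ViennaRNA 2.7.2 did the rest. The authors may have used another annotation than RefSeq or GENCODE.

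The members and lists were chosen with earlier results of these data known. Named miRNAs were both arms of miR-210, up to 5 tested members of lowest p per list, 3 neighbours in level on each side, and the 5 nearest patterns (log2 of scaled CPM plus 0.5). Further HIF-directed members below 0 and some cell type markers are named with their values. For the PCR references the ratios of miR-210-3p to them and their own log2 fold changes are given.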

Additional observations from a re-analysis of the deposited data

How the results depend on the processing

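All 24 alternatives for miR-210-3p, 17 fits and 7 ratios, kept its log2 fold change above 0, and none brought an adjusted p under 0.05. The 28 ratios recomputed without 1 library lay between 0.03 and 0.40. The count of called miRNAs was 0 in the reported fit, 4 with the edgeR likelihood ratio test and 0 to 6 with 1 library left out, the 6 without entinostat replicate 1. In such fits the lone library of a treatment is assumed to vary like the other treatment's pair. Among named miRNAs, the 6 included miR-23a-3p (0.43), miR-193b-3p (0.56) and miR-424-3p (-0.87). At an unadjusted p under 0.05, the reported 12 higher and 15 lower became 38 and 6 with upper quartile factors, 22 and 23 without a filter, and 3 and 8 with DESeq2. The 12 higher became 27 without entinostat replicate 1, and the 15 lower became 23 without entinostat replicate 2. The median of the hypoxia-raised list ran from 0.07 to 0.24. That of the HIF-directed list, 0.08, was 0.20 with upper quartile factors and -0.13 to 0.13 with 1 library left out. Of 340 alternatives for 20 of the other named miRNAs, 326 kept direction and side of the threshold. In miR-629-5p the sign turned with upper quartile factors (0.12), library size alone (0.00143), the replicate block (0.0102), the crossed block (0.00176), both pseudocounts of 1 and 0.5 on deposited CPM (0.0169 and 0.0170), and without DMSO replicate 1 (0.15) or entinostat replicate 1 (0.03). With 1 library left out, miR-431-5p ran from -0.23 (without DMSO replicate 1) to 0.29, and was -0.03 without entinostat replicate 2. Likewise miR-193b-3p ran from -0.0193 (without entinostat replicate 2) to 0.56. The cause was not tested. For miR-210-5p, the log2 ratio of 1.05 was 0.13 without entinostat replicate 2, and 0.96 when fitted without a filter.

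Same-numbered libraries of the treatments deviated slightly in opposite directions (correlation -0.12 across the 401 tested miRNAs), and no label ties a number to a culture or day. With the replicate number as a block, miR-210-3p stood at 0.27 and 0 miRNAs were called. With crossed numbers, an alternative chosen after seeing the data, 0 were called. Between 143 and 231 counts of miR-210-3p a library limit its precision to a counting error of 8.36% to 6.58%.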
